A study of Mus musculus with 18 samples.

Results

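The cytosolic sulfotransferase genes examined here were 10 named mouse genes, Sult1a1, Sult1b1, Sult1c2, Sult1d1, Sult2a1, Sult2a2, Sult2a5, Sult2a7, Sult2a8 and Sult5a1, found by symbol among the 55487 genes of a liver count table. They were chosen by name from the family with results of both comparisons of these data known, so their fold changes are a description and support nothing by themselves. The table holds another 17 genes or pseudogenes whose symbol begins with Sult and a number. RNA had been sequenced from 18 livers of male C57BL/6J mice, 1 library per mouse and 6 mice in each group. All mice were 7 weeks old at purchase and were given an AAV8 vector 1 week before the diets began, with the transgene behind the hepatocyte promoter TBG. CON-GFP mice carried enhanced GFP and ate a purified control diet for 16 weeks. FPC-GFP mice carried the same GFP vector and ate a high-fat diet with added fructose, palmitate and cholesterol (FPC), with fructose and glucose in the drinking water, for the same time. FPC-LIPA mice ate the FPC diet with the sugar water and carried human LIPA, the gene of lysosomal acid lipase (LAL), in place of GFP. There was no control diet group with LIPA among the libraries used here, so an effect of LIPA without the FPC diet was not analysed. Livers were collected after a 4 h fast.

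Cytosolic sulfotransferases move a sulfo group from the donor PAPS (3'-phosphoadenosine 5'-phosphosulfate) to a hydroxyl or amino group of a small molecule, which makes the product more soluble in water and easier to excrete. The SULT1 enzymes act mainly on phenols, among them drugs, catecholamines and thyroid hormones, whereas the SULT2 enzymes act on steroids and bile acids. They are abundant in hepatocytes, and several differ between the sexes in mouse liver. PAPS itself is made from ATP and inorganic sulfate by the PAPSS enzymes, and sulfatases take sulfate groups off again.

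On the GRCm38 genome Sult1b1 (ENSMUSG00000029269, chr5:87513339-87538195) and Sult1d1 (ENSMUSG00000029273, chr5:87554645-87569027) are neighbours on the minus strand, 16.4 kb apart. The 5 Sult2a members belong to a cluster of 8 numbered Sult2a genes spanning 870.3 kb on chromosome 7, with Sult2a8 (ENSMUSG00000030378, chr7:14410686-14446769) next to Sult2a7 (ENSMUSG00000094156, chr7:14465051-14494230). Sult1a1 (ENSMUSG00000030711, chr7:126672865-126676432), Sult1c2 (ENSMUSG00000023122, chr17:53829637-53846339) and Sult5a1 (ENSMUSG00000000739, chr8:123140192-123158315) stand apart. Exons of Sult1a1 share 61 bases with Sgf29 on the opposite strand, and Sgf29 held 71 to 741 counts per library against 1563 to 10116 for Sult1a1. No other member shared exon bases with an annotated gene. Sult1a1, Sult1b1, Sult1c2, Sult1d1, Sult2a7, Sult2a8 and Sult5a1 shared no stretch of 100 bases with another Sult transcript. Sult2a1, Sult2a2 and Sult2a5 shared 11.4%, 34.6% and 16.6% of their stretches of that length with other Sult genes, so reads of these 3 genes cannot always be assigned.

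The RefSeq promoter windows of 4 members are shown because the levels of these genes followed different courses over the groups: Sult1b1 and Sult1d1 moved together, Sult2a8 was the most abundant, and Sult1a1 stayed low in both FPC groups. Each window runs from 250 bases before to 50 bases after the most upstream start site, 5′ to 3′ on the minus strand of GRCm38.p6. Capitals mark matches, on either strand, to any of 4 short motifs. The core site of nuclear receptors was searched as AGGTCA. The STAT site was searched as TTCNNNGAA. The core site of the hepatocyte factor HNF1 was searched as GTTAAT, and the TATA box as TATAAA, with no overlap between the matches shown.
Sult1b1, chr5:87538146-87538445: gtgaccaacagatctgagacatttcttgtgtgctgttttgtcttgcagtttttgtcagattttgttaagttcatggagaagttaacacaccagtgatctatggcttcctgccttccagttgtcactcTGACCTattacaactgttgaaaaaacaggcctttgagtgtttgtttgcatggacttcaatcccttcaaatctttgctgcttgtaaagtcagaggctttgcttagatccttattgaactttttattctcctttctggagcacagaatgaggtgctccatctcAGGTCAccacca
Sult1d1, chr5:87568957-87569256: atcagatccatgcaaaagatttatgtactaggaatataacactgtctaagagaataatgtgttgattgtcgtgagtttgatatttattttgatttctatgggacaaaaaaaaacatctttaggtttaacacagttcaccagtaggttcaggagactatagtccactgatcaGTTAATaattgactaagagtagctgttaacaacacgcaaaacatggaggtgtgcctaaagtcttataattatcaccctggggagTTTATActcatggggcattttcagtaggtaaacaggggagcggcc
Sult2a8, chr7:14446538-14446837: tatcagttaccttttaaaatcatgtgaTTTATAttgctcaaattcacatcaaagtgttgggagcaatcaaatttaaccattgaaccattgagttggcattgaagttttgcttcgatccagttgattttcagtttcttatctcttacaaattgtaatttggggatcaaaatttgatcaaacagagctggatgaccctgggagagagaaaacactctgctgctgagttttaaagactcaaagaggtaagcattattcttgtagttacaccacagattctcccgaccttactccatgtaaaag
Sult1a1, chr7:126676369-126676668: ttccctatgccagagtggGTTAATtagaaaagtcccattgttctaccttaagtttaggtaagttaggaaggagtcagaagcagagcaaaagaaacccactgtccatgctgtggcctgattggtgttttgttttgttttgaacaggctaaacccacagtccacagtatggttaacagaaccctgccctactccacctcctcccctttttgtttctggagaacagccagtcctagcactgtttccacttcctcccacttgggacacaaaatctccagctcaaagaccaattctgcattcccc
The Sult1b1 window holds 2 matches to AGGTCA, where 16.3% of 32851 mouse windows of the same length hold at least 1. The Sult1d1 window holds 1 match to the HNF1 core site and 1 to the TATA letters, found in 7.10% and 13.6% of windows. The Sult2a8 window holds 1 match to the TATA letters, and the Sult1a1 window 1 match to the HNF1 core site. No window shown matched the STAT site, present in 8.30% of windows. These are matches of letters and do not show that a factor binds there.

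Total counts ranged from 16632146 to 37739301 per library. Of the listed hepatocyte markers 9 of 10 were in the table, and their summed level ran from 77379 to 107484 CPM (counts per M reads counted, scaled by TMM) on the control diet, from 65229 to 93615 CPM in FPC-GFP and from 52887 to 79345 CPM in FPC-LIPA. Xist was at or below 0.198 CPM in every library. Mouse Lipa, which is not the transgene, measured 243 ± 33.9, 336 ± 59.3 and 300 ± 44.8 CPM in CON-GFP, FPC-GFP and FPC-LIPA in turn (mean ± SD, n = 6 mice), and human LIPA is not a gene of this table. FPC-LIPA mice 36, 37 and 39 stood apart, with 6.49%, 8.10% and 8.16% of counts on ribosomal protein genes, against 1.44% to 2.95% in the other libraries. Results in FPC-LIPA are therefore given with and without these 3 libraries. Sample sheet numbers in the labels were 55 to 68 for all but FPC-LIPA 37, FPC-GFP 20 and CON-GFP 1 and 2.

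In control diet livers the family was dominated by Sult2a8, an enzyme that sulfonates bile acids. Per kb of exon, which allows levels of different genes to be compared, Sult2a8 stood at 341 ± 126 CPM per kb in CON-GFP (mean ± SD, n = 6). Sult1a1, the main phenol sulfotransferase, followed at 219 ± 33.7 CPM per kb. Over the 6 mice Sult2a8 ranged from 245 to 586 and Sult1a1 from 156 to 246 CPM per kb. These ranges overlapped, but within each mouse Sult2a8 was the higher. Sult1d1, which acts on catecholamines, was next at 67.01 ± 34.2 CPM per kb, and its highest mouse, at 124, was below the lowest Sult1a1 value. Sult1b1, which acts on thyroid hormones and simple phenols, stood at 18.5 ± 9.40 CPM per kb with a range of 9.77 to 36.6. The lowest Sult1d1 value of 30.8 lay in this range, but within each mouse Sult1d1 was the higher. Sult1c2, another phenol sulfotransferase, reached 8.02 ± 1.29, Sult2a7 6.08 ± 2.18 and Sult5a1 1.39 ± 1.01 CPM per kb. The Sult1c2 and Sult2a7 ranges overlapped, and all 6 mice had less Sult5a1 than the lowest Sult2a7 value of 3.13 CPM per kb.

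**Figure D1:**
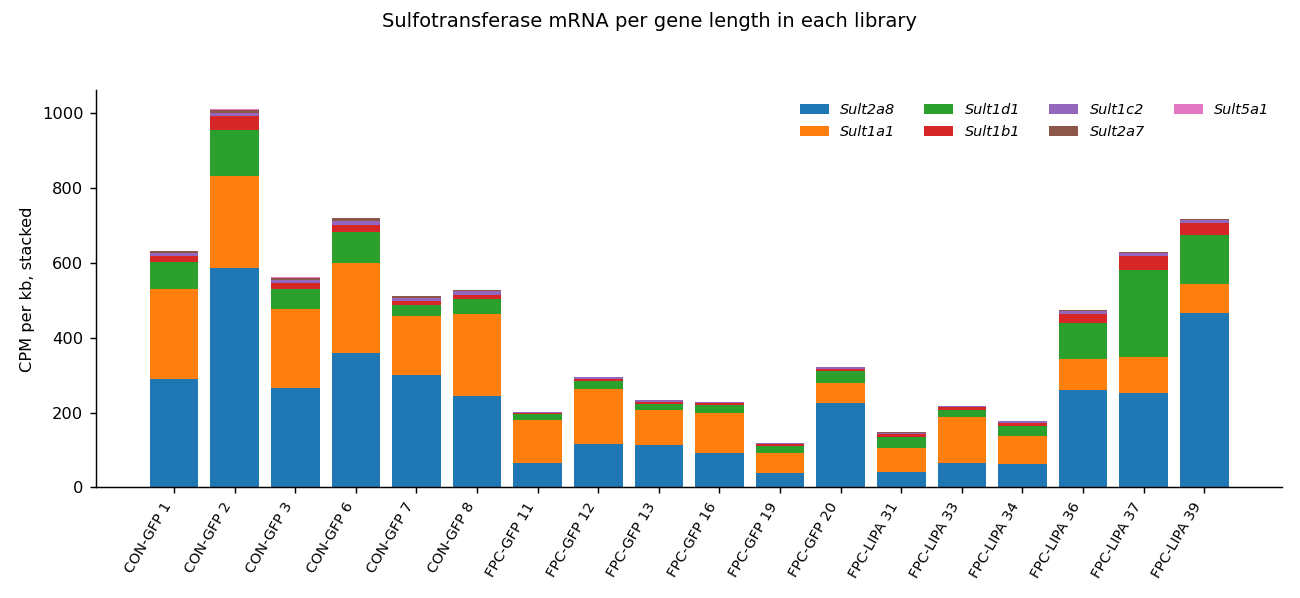
Stacked bars give the CPM per kb of exon of the 7 measurable sulfotransferase genes in each of the 18 libraries. Sult2a8 and Sult1a1 make up most of every bar, the CON-GFP bars sum to between 513 and 1010 CPM per kb, and FPC-LIPA 36, 37 and 39 stand above the other FPC libraries.

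Sult2a1, Sult2a2 and Sult2a5, steroid sulfotransferases that are known from female mouse liver, were at or near nothing in these males. Sult2a1 had at most 6 counts in a library, Sult2a2 at most 3 and Sult2a5 at most 1. A floor of 3 counts was used, so Sult2a2 and Sult2a5 were at or under it in all 18 libraries and Sult2a1 in all but FPC-LIPA 34 and 39. These 3 genes did not pass the filter on low counts and were not tested. Among the other 17 Sult genes 12 had no count in any library and none passed the filter in the comparisons of 6 against 6 mice. Sult1e1, the estrogen sulfotransferase, was the only one to reach a mean of 1 CPM in a group, at 1.21 ± 0.98 CPM in CON-GFP, 0.203 ± 0.347 CPM in FPC-GFP and 0.190 ± 0.254 CPM in FPC-LIPA.

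FPC-GFP was compared with CON-GFP to ask what the diet does to these genes. All 7 tested members were called lower in FPC-GFP, that is, at least 2-fold lower at an adjusted p under 0.05 in edgeR's quasi-likelihood test over all 14307 genes tested. Of all genes tested, 2.44% were called lower and 4.76% higher. The median log2 fold change was -1.69 over the 7 members and 0.01 over all genes. In 5 of the 7 every FPC-GFP mouse was below every CON-GFP mouse, as was so for 4.41% of all genes. Beside this, 7 of 10 macrophage and leukocyte markers were called higher and none lower under the diet, with a median log2 change of 1.37, while 1 of 9 hepatocyte markers (Serpina1c, at -1.07) was called lower and their median was -0.27. The part of these in the sulfotransferase levels was not tested. In bulk liver RNA, fewer cells of a type and less RNA per cell cannot be told apart.

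Of the bile acid and steroid enzymes, Sult2a8 was measured at 803 CPM in the lowest, 970 CPM in the median and 1924 CPM in the highest CON-GFP mouse. In FPC-GFP the lowest, median and highest mice were at 126, 339 and 743 CPM. The groups did not overlap, and the highest FPC-GFP mouse was FPC-GFP 20. Sult2a8 fell by 1.66 on the log2 scale (SE 0.34), a 3.16-fold difference. Its neighbour Sult2a7 had the largest change of the family. It ranged from 3.995 to 11.0 CPM in control mice (median 8.00) and from 0.421 to 1.06 CPM in FPC-GFP (median 0.722). The groups lay well apart, and Sult2a7 fell by 3.45 (SE 0.30), or 11.0-fold. In CPM, the Sult2a8 level was 108 to 238 times that of Sult2a7 in control mice and 205 to 852 times in FPC-GFP, so these 2 neighbours did not shift by the same factor.

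Of the phenol enzymes, Sult1a1 ranged from 235 to 371 CPM (median 345) on the control diet and from 80.2 to 221 CPM (median 150) in FPC-GFP. The ranges did not overlap but nearly met, and the log2 change was -1.22 (SE 0.23). Sult1b1 ranged from 27.1 to 102 CPM (median 47.3) in CON-GFP and from 6.95 to 16.2 CPM (median 14.6) in FPC-GFP. Its log2 change of -1.99 (SE 0.29), 3.98-fold lower, was the next largest after Sult2a7. Sult1d1 ranged from 75.8 to 304 CPM (median 154) in CON-GFP and from 39.8 to 79.3 CPM (median 47.9) in FPC-GFP, a log2 change of -1.69 (SE 0.30). A single FPC-GFP mouse, 20, lay within the control range, just above the lowest control. Sult1c2 ranged from 11.6 to 18.2 CPM (median 15.2) in CON-GFP and from 2.77 to 9.13 CPM (median 7.01) in FPC-GFP, a log2 change of -1.19 (SE 0.22) without overlap. The smallest changes of the family were thus those of Sult1c2 and Sult1a1, at 2.29-fold and 2.33-fold.

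Sult5a1, the member whose substrate is least known, was low and variable. It ranged from 1.38 to 12.6 CPM (median 4.79) in CON-GFP and from 0.571 to 3.03 CPM (median 1.62) in FPC-GFP. Only 3 of 6 FPC-GFP mice were below every control, and the log2 change was -1.79 (SE 0.51). Without CON-GFP 3, its highest library, the change was -1.44 with an adjusted p of 0.0506 (edgeR quasi-likelihood test), and the call was lost. With sample sheet numbers from 55 to 68 it was lost as well (adjusted p = 0.0721, edgeR quasi-likelihood test).

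**Figure D2:**
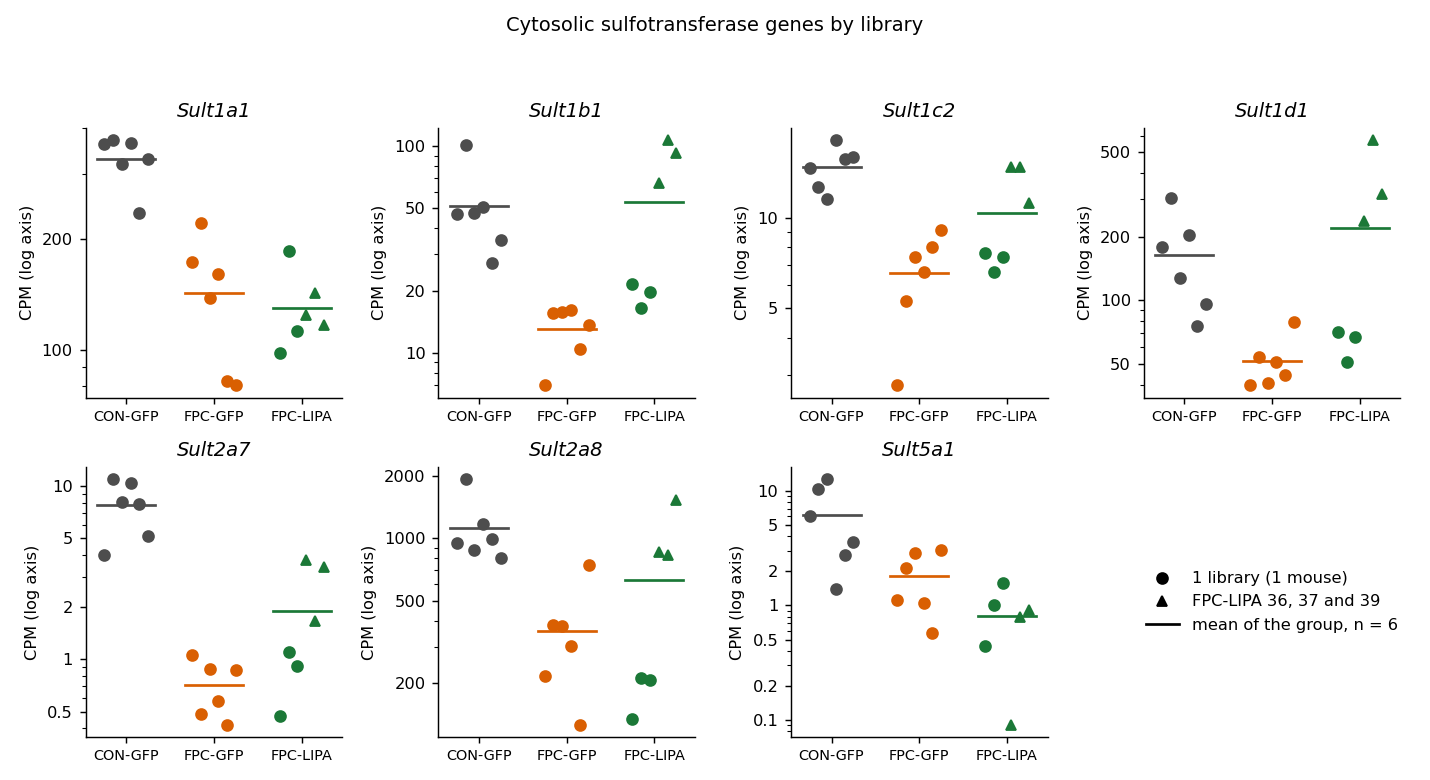
Each panel shows 1 gene in CPM on a log axis, with a point for each of 18 libraries, a bar at the group mean and triangles for FPC-LIPA 36, 37 and 39. For Sult1b1, Sult1c2, Sult1d1, Sult2a7 and Sult2a8 the triangles lie above the other FPC-LIPA points, and for Sult1a1 and Sult5a1 they do not.

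FPC-LIPA was compared with FPC-GFP to ask what LIPA does on the FPC diet. These groups share the FPC-GFP libraries with the diet comparison, so the changes of a gene in both are not independent. Among the 7 tested members 3 were called higher in FPC-LIPA and none was called lower, where 10.3% of 14620 genes tested were called higher and 1.11% lower. The 3 were Sult1b1, Sult1d1 and Sult2a7. The median log2 fold change was 0.82 over the members and 0.04 over all genes. Without FPC-LIPA 36, 37 and 39 none was called, where 0.728% of 15246 genes were called higher and 0.0328% lower, and the members' median was 0.15.

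Sult1b1 stood at 21.6, 16.4 and 19.8 CPM in FPC-LIPA 31, 33 and 34 and at 66.2, 107 and 92.7 CPM in 36, 37 and 39. The first 3 mice were just above the highest FPC-GFP mouse at 16.2 CPM, and the other 3 were above at least 5 of the 6 CON-GFP mice. The groups did not overlap, as was so in this direction for 3.81% of all genes, and the log2 change was 2.05 (SE 0.46), or 4.14-fold. Without the 3 libraries it was 0.57 (SE 0.23) and not called.

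Sult1d1 stood at 70.7, 51.1 and 67.5 CPM in FPC-LIPA 31, 33 and 34 and at 238, 572 and 318 CPM in 36, 37 and 39. The first 3 were within the FPC-GFP range, and 572 CPM in FPC-LIPA 37 was the highest of all 18 libraries. The log2 change was 2.09 (SE 0.52), and without the 3 libraries 0.30 (SE 0.22). The fit with sheet numbers 55 to 68 left out FPC-LIPA 37 and FPC-GFP 20 but kept FPC-LIPA 36 and 39. There Sult1b1 was at 1.73 (SE 0.47) and Sult1d1 at 1.68 (SE 0.46), and neither was called.

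Over all 18 libraries Sult1b1 and Sult1d1 were the most alike of the 21 pairs of measurable members. The root mean square difference of their log2 CPM, each centred on its own mean, was 0.35, where each gene by itself varied by 1.15 and 1.14 about its mean. The level of Sult1d1 was 2.59 to 5.84 times that of Sult1b1 in CPM in every library. The next pair, Sult1b1 and Sult2a8, differed by 0.75.

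Sult2a7 stood at 0.473, 1.11 and 0.914 CPM in FPC-LIPA 31, 33 and 34 and at 3.77, 1.67 and 3.43 CPM in 36, 37 and 39. It remained below every control mouse, and 4 of 6 mice were above all FPC-GFP mice. Its log2 change of 1.41 (SE 0.48) passed narrowly, with an adjusted p of 0.0478 (edgeR quasi-likelihood test), and was 0.24 (SE 0.40) without the 3 libraries. With the trend of counts on gene length removed from each library it was 0.92 and not called.

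Sult2a8 showed the same split without being called. It stood at 135, 211 and 208 CPM in FPC-LIPA 31, 33 and 34, all below the FPC-GFP median of 339 CPM, and at 856, 830 and 1534 CPM in 36, 37 and 39, all above the highest FPC-GFP mouse. The log2 change was 0.82 (SE 0.56) over the 6 mice and -0.95 (SE 0.43) without the 3 libraries, where it was not called either. Sult1c2 stood at 7.63, 6.62 and 7.41 CPM in 31, 33 and 34 and at 14.7, 14.8 and 11.3 CPM in 36, 37 and 39, with a log2 change of 0.67 (SE 0.29), and of 0.15 (SE 0.29) without the 3.

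Sult1a1 and Sult5a1 had no such split. Sult1a1 ranged from 97.9 to 185 CPM in FPC-LIPA (median 121), within the FPC-GFP range, with 124, 143 and 117 CPM in 36, 37 and 39, and the log2 change was -0.13 (SE 0.26). Sult5a1 ranged from 0.0913 to 1.58 CPM (median 0.849) with its lowest value, 3 counts, in FPC-LIPA 36, and its log2 change was -1.15 (SE 0.53), not called.

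**Figure D3:**
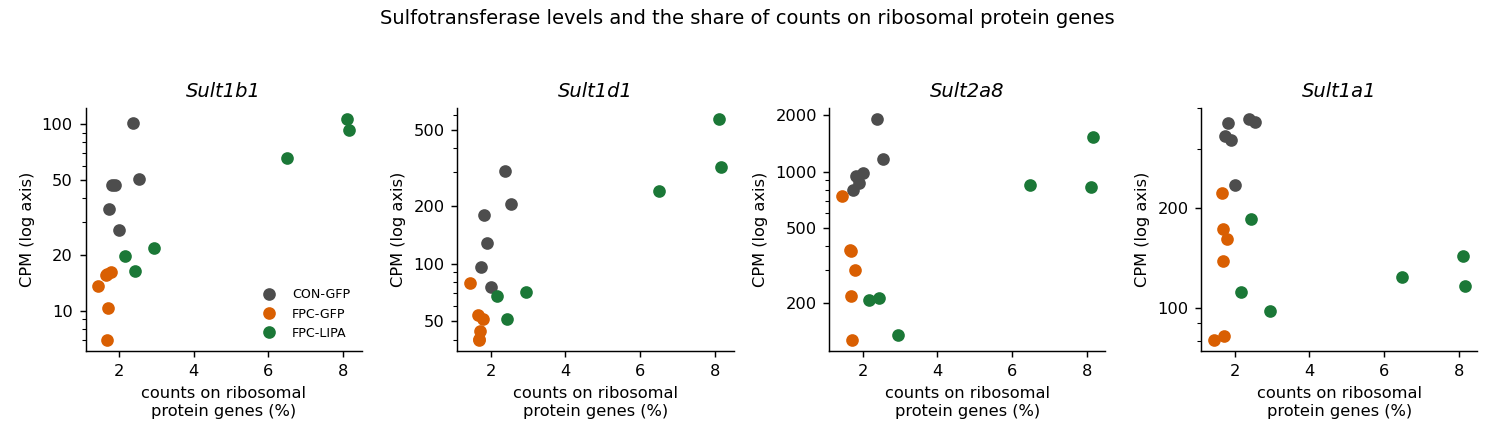
Each panel plots the CPM of 1 gene on a log axis against the percentage of counts on ribosomal protein genes, with a point for each of 18 libraries coloured by group. The 3 FPC-LIPA libraries above 6% have high Sult1b1, Sult1d1 and Sult2a8, whereas their Sult1a1 is within the range of the other FPC libraries.

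Of the summed levels of markers of other cell types, that of enterocytes separated the same 3 libraries from FPC-LIPA 31, 33 and 34, and the others overlapped between them. The summed enterocyte markers, which here are nearly all Fabp2, a fatty acid binding protein also made in liver, were at 349 to 532 CPM in FPC-LIPA 31, 33 and 34 and at 1601 to 2208 CPM in 36, 37 and 39. The defining intestinal marker Cdx2 was at or under the floor of 3 counts in every library. Alpi was so in every library but FPC-LIPA 39, one of the 3, where it had 4 counts. Vil1 went the other way from Fabp2, with 4, 19 and 5 counts in FPC-LIPA 31, 33 and 34 and 3, 3 and 1 in 36, 37 and 39. It was above the floor in some GFP libraries too, with 10 counts in FPC-GFP 11. All 4 kidney tubule markers were at or under the floor in all 18. Summed macrophage and leukocyte markers were at 885 to 1182 CPM in 31, 33 and 34 and at 1089 to 1538 CPM in 36, 37 and 39, and summed hepatocyte markers were at 52887 to 79345 and at 63961 to 77378 CPM. Summed stellate markers were at 275 to 374 and at 334 to 1047 CPM, and cholangiocyte markers at 41.9 to 104 and at 38.0 to 210 CPM. Summed endothelial markers were at 203 to 316 CPM over all FPC-LIPA mice, against 166 to 209 CPM in FPC-GFP and 124 to 201 CPM on the control diet. For macrophages and leukocytes these sums were 416 to 813 CPM in FPC-GFP and 147 to 305 CPM on the control diet. The part of these measures in the sulfotransferase levels was not tested.

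Against CON-GFP, the FPC-LIPA livers had 3 of the 7 members called lower and none higher, where 3.25% of 14433 genes were called lower and 11.8% higher. Sult1a1 was lower by a log2 change of -1.37 (SE 0.20) and Sult2a7 by -2.08 (SE 0.44), and in both the groups did not overlap, as for 4.84% of all genes in this direction. Sult5a1 was lower by -2.94 (SE 0.60), with 5 of 6 mice below every control. Sult1b1 and Sult1d1 had log2 differences of 0.01 (SE 0.46) and 0.36 (SE 0.54), Sult1c2 of -0.55 (SE 0.22) and Sult2a8 of -0.88 (SE 0.50), and none of these was called. Without FPC-LIPA 36, 37 and 39 all 7 were called lower, with log2 differences from -1.04 for Sult1c2 to -3.20 for Sult2a7, where 2.60% of 15113 genes were called lower and 8.80% higher. The control livers are the same in this comparison and in that of the diet.

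**Figure D4:**
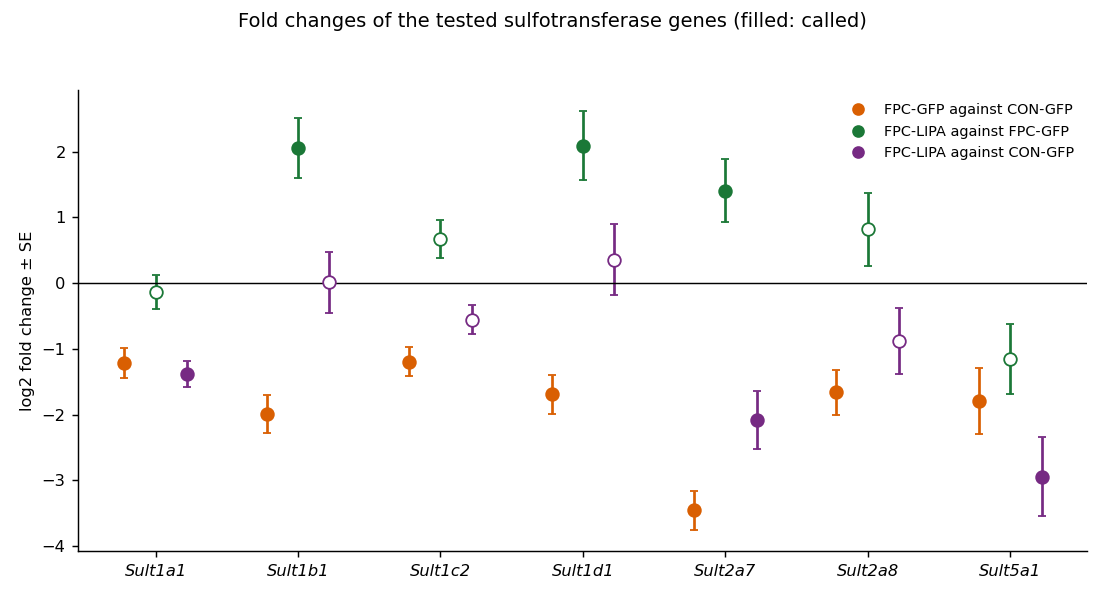
Points are log2 fold changes with SE bars from edgeR for the 7 tested genes in each comparison of 6 against 6 mice, filled where called. The diet points all lie below 0, from -1.19 to -3.45, and the LIPA points run from -1.15 for Sult5a1 to 2.09 for Sult1d1.

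**Figure D5:**
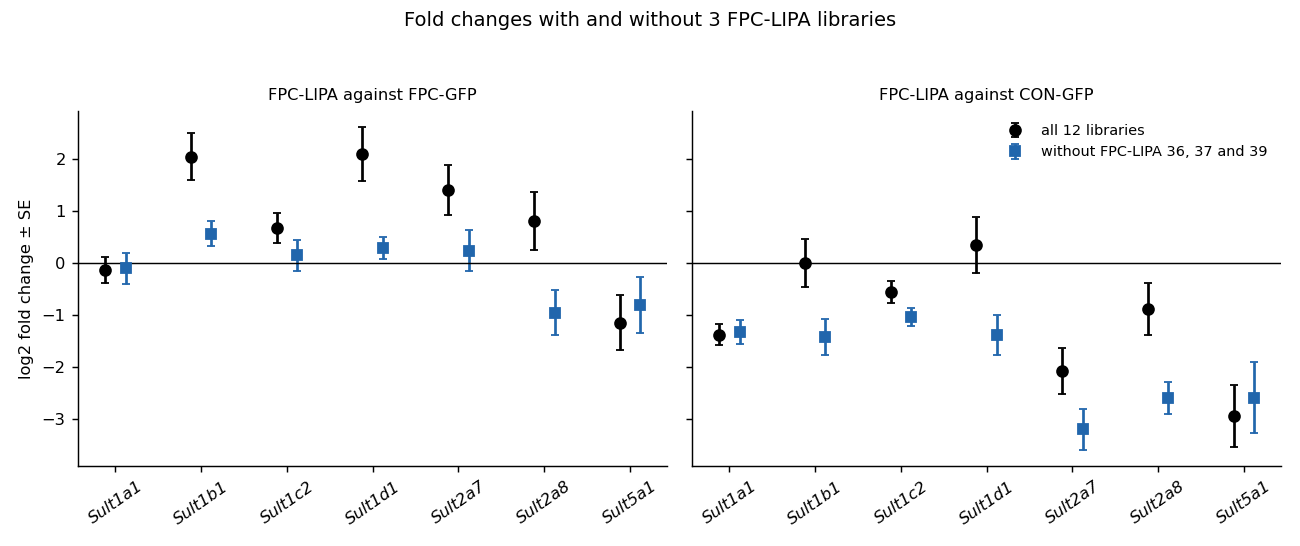
Circles are log2 fold changes with all 6 FPC-LIPA mice and squares those without FPC-LIPA 36, 37 and 39, each with its SE. Against FPC-GFP the squares of Sult1b1, Sult1d1 and Sult2a7 lie between 0.24 and 0.57, and against CON-GFP all squares lie below -1.

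The spread between mice differed among members. In FPC-LIPA the coefficient of variation was 23.8% for Sult1a1 and 35.9% for Sult1c2 but 92.8% for Sult1d1, 87.3% for Sult2a8 and 74.6% for Sult1b1. In CON-GFP it was 15.4% for Sult1a1, 16.1% for Sult1c2, 37.0% for Sult2a8, 50.7% for Sult1b1 and 51.0% for Sult1d1. Sult1a1 and Sult1c2 were thus the steadiest in the control livers. In FPC-GFP the steadiest were instead Sult1b1 at 28.1% and Sult1d1 at 28.6%. Sult1c2 was there at 34.5%, Sult1a1 at 38.4% and Sult2a8 at 59.4%, so the order of genes by spread was not the same in all groups. Summed over the members, levels ran from 1289 to 2735 CPM on the control diet, from 273 to 929 CPM in FPC-GFP and from 334 to 2078 CPM in FPC-LIPA. Per kb, the share of Sult1a1 in the sum was 24.4% to 41.4% in CON-GFP, 16.5% to 56.8% in FPC-GFP and 10.8% to 56.2% in FPC-LIPA, and that of Sult1d1 was 6.01% to 12.3%, 7.06% to 15.1% and 9.51% to 37.0%.

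Counts called in the lists that follow stand beside the shares over all genes tested. Under the diet 4.76% of all genes were called higher and 2.44% lower, and with LIPA 10.3% and 1.11%. Genes that supply the enzymes with PAPS and sulfate did not follow the family. Of 15 tested, 1 was called higher and none lower under the diet, with a median log2 change of -0.02, and none was called with LIPA. The gene called was Slc13a4, a sulfate transporter, with a log2 change of 2.17 (SE 0.39) and an adjusted p of 0.00166 in edgeR's quasi-likelihood test, and its level was 0.610 ± 0.128 CPM on the control diet and 2.79 ± 1.81 CPM on the FPC diet. Cdo1, cysteine dioxygenase, the most abundant of the list and a source of sulfate from cysteine, was at 1974 ± 350 CPM on the control diet and 1090 ± 154 CPM on the FPC diet with GFP, a log2 change of -0.87 (SE 0.14) that is under 2-fold. No sulfatase of 12 tested was called under the diet. With LIPA 2 were called higher, Sulf1 by 1.22 (SE 0.31) and Arsk by 1.06 (SE 0.34), and without the 3 libraries neither was, at 1.14 and 0.29. Of the Golgi sulfotransferases, which modify sugar chains and proteins and not small molecules, 2 of 17 tested were called higher under the diet, Chst14 by 1.00 (SE 0.24) and Ust by 1.15 (SE 0.27). With LIPA 2 of 19 were called lower, Ndst1 by -1.03 (SE 0.31) and Hs6st1 by -1.01 (SE 0.28), and neither was called without the 3 libraries.

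Several Sult genes depend on sex in mouse liver, so genes known for that were counted beside them. Over all genes 4.76% were called higher and 2.44% lower under the diet, and 10.3% and 1.11% with LIPA. Of 21 tested genes that are higher in male liver, 8 were called lower and 1 higher under the diet, with a median log2 change of -0.79, and 11 lower and 1 higher with LIPA, with a median of -1.01. Hsd3b5, a steroid dehydrogenase, measured 167 ± 88.2, 19.4 ± 42.4 and 0.574 ± 0.154 CPM in CON-GFP, FPC-GFP and FPC-LIPA in turn. Its log2 changes were -3.14 (SE 1.04) under the diet and -5.04 (SE 1.21) with LIPA, both called. The FPC-GFP mice were uneven, with an SD above the mean. Without FPC-LIPA 36, 37 and 39 the change of Hsd3b5 with LIPA was -5.13 (SE 1.83) and not called. Mup3, a major urinary protein, was called lower under the diet by -1.64 (SE 0.29), and Mup20 was called higher with LIPA by 2.26 (SE 0.52). Selenbp2 and C8b, a complement gene, were called lower under the diet by -2.37 (SE 0.71) and -1.83 (SE 0.38), whereas Cspg5 was called higher by 2.46 (SE 0.49). With LIPA the serpin gene Serpina1e and the cytochrome P450 gene Cyp4a12b were called lower by -4.27 (SE 0.85) and -2.13 (SE 0.40). Without FPC-LIPA 36, 37 and 39, 3 genes of this list were called lower and none higher with LIPA, and its median was -1.12. Cyp4a12b was among those called, at -1.59 (SE 0.35). In the same fit Mup20 was at 0.73 (SE 0.31) and Serpina1e at -4.15 (SE 1.23), neither called. Of 13 tested genes that are higher in female liver, 3 were called higher and 1 lower under the diet, and 2 higher with LIPA, of which none was called without the 3 libraries. The transporter genes Slc22a26 and Slc22a27 were called higher under the diet by 1.52 (SE 0.42) and 1.48 (SE 0.42), and Atp6v0d2 was called lower by -1.19 (SE 0.34). With LIPA, Atp6v0d2 was called higher by 1.73 (SE 0.38) and Slc22a27 by 1.55 (SE 0.49), and without the 3 libraries they were at 1.43 (SE 0.41) and 0.65 (SE 0.43). Cyp2b9, the most abundant of the list in the diet comparison, was at 81.3 ± 37.1 and 126 ± 87.9 CPM and was not called. The largest of these changes was that of Cyp2a4, a steroid hydroxylase, at 5.84 (SE 0.85) under the diet. Counts of Cyp2a4 and of the Mup genes are uncertain, since near-identical copies of each exist.

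Of 13 nuclear receptors and related factors tested that are known to act on Sult genes, none was called with LIPA. For this list and the 2 after it, the shares over all genes were 4.76% higher and 2.44% lower under the diet, and 10.3% and 1.11% with LIPA. Nr1i3, the receptor CAR, measured 483 ± 130, 299 ± 64.04 and 312 ± 171 CPM in CON-GFP, FPC-GFP and FPC-LIPA in turn, with a log2 change of -0.70 (SE 0.19) under the diet. Hnf4a, a hepatocyte factor, was called lower in FPC-LIPA against CON-GFP only, by -1.15 (SE 0.34), and without FPC-LIPA 36, 37 and 39 it was at -0.61 (SE 0.23) and not called. Of the known targets of CAR and PXR, 4 of 17 tested were called higher and none lower under the diet. These were the glutathione transferases Gstm3 at 3.03 (SE 0.46), Gsta1 at 2.85 (SE 0.39) and Gstm1 at 1.93 (SE 0.24), and the epoxide hydrolase Ephx1 at 1.13 (SE 0.14). Cyp3a11, the most abundant of the list, was not called under the diet. The part of CAR and PXR in the sulfotransferase levels was not tested. With LIPA 2 of 18 were called higher, Cyp3a11 by 1.41 (SE 0.36) and Cyp2c55 by 1.27 (SE 0.40), and Cyp2c29 was called lower by -1.005 (SE 0.34), and none was without the 3 libraries. Of 11 targets of the bile acid receptor FXR none was called under the diet, and with LIPA 1 was, a subunit of a bile acid exporter, Slc51b, at 1.69 (SE 0.51), which was not called without the 3 libraries. Slc27a5, a bile acid activating enzyme and the most abundant of this list, was at 798 ± 150, 634 ± 94.7 and 561 ± 129 CPM in the 3 groups.

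The genes most like each member over the 18 libraries, by the root mean square difference of centred log2 CPM, are given as a description. They were sought among 12731 genes, with all Sult genes left out. For Sult1a1 they were Dmgdh (0.34), Bhmt2 (0.36) and Serpina3m (0.36), the first a glycine pathway enzyme and the next a methyltransferase. For Sult2a8 they were Mup3 (0.44), Gm30262 (0.53) and Zfp992 (0.57), and for Sult1b1 Gm11844 (0.28), Gm40787 (0.39) and 9630013D21Rik (0.40). The last of these was also the closest to Sult1d1 among the genes searched (0.37), followed by 2010315B03Rik (0.39) and Coa6 (0.42). Sult1b1, which was not searched, differed less from Sult1d1, by 0.35. Sult1c2 was most like Sucnr1, Smim19 and Trdmt1, at 0.34 to 0.35. Sult2a7 (Zap70, Gm12718 and Gm16573, at 0.77 to 0.83) and Sult5a1 (Cd4, Cabyr and Cyp4a12b, at 0.64 to 0.80) had more distant matches. Mup3 stood at 13055 ± 6105, 4229 ± 1553 and 7681 ± 6349 CPM in CON-GFP, FPC-GFP and FPC-LIPA. Sult2a8 shared this order of groups, which is no separate result, because Mup3 was picked for its likeness over the same libraries. That order rested on FPC-LIPA 36, 37 and 39, without which the log2 change with LIPA was -0.65 (SE 0.28) for Mup3 and -0.95 (SE 0.43) for Sult2a8, neither called.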

How the data were processed

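Liver RNA of 18 mice was sequenced, 1 library per mouse. The values are raw counts per gene, without normalization, which the authors made by trimming paired reads, mapping them to GRCm38 with HISAT2 (version 2.1.0 in the submitters' processing notes) and counting with Subread's featureCounts. Strand setting, annotation and the treatment of reads with several hits are not given in the sources used here, and both a stranded and an unstranded kit are named. Of 23 columns 18 were matched to groups by condition and mouse number, and 5 were not used. The members, gene lists and alternatives were chosen with earlier results of these data known.

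Each comparison was fitted on its own 12 libraries with edgeR 4.0.16 in R 4.3.3 (filterByExpr, TMM, quasi-likelihood test, Benjamini-Hochberg adjustment over all tested genes). A gene was called at 2-fold or more with the adjusted p below 0.05. SE is the log2 fold change over the square root of F. CPM was scaled by TMM over 18 libraries, and log2 CPM used a prior count of 2. Exon lengths and gene positions came from GENCODE M21, which held 55227 of the 55487 genes, and promoters from RefSeq, which held 7 of the 10 members. FPC-LIPA against CON-GFP was added to order the groups. Lists were counted only, with no set test. The test was checked on simulated data. Errors cover the spread between mice and counting noise, which weighs most on Sult2a7, with 14 to 34 counts in FPC-GFP, and Sult5a1, with down to 3 counts in FPC-LIPA.

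Named genes were every member, other Sult genes with a group mean of at least 1 CPM, and up to 4 called genes of each list by size of change with its most abundant gene (in the diet and LIPA comparisons, while those of FPC-LIPA against CON-GFP are mostly not listed here). The 3 genes without a Sult symbol most like a member were also named, for members whose group means of log2 CPM span at least 1. Ust, under that mean in the controls, and the values of genes in comparisons where they were not called were added after their values were seen. Alternatives were DESeq2 1.42.0 size factors or Wald test, library size alone, no filter, all 18 libraries in 1 fit, removal of a trend on gene length, sheet numbers from 55 to 68, other thresholds, each library left out, and FPC-LIPA 36, 37 and 39 left out. The results of 2 listed genes are not reported here.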

Additional observations from a re-analysis of the deposited data

Results flagged for a closer look

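Within each group of 6 mice, the gap of the highest or lowest mouse to its nearest neighbour was divided by the range of the group. This ratio, taken on CPM and not on log2 CPM, was above Dixon's 95% critical value in 3 of 21 cases. The rate of about 1 in 20 by chance holds for independent, normally distributed values. The 3 cases cannot be set against it, since CPM is skewed and CON-GFP 2 holds more than 1 of them. Sult1b1 stood at 101.7 CPM in CON-GFP 2, against 27.1 to 50.5 CPM in the other control mice. Sult2a8 stood at 1924 CPM in the same library, against 803 to 1178 CPM. Sult1d1 stood at 79.3 CPM in FPC-GFP 20, against 39.8 to 54.2 CPM in the other FPC-GFP mice. Both libraries have sample sheet numbers outside 55 to 68 and totals of 17741598 and 17813507 counts, below the other libraries of their groups, and the part of this in the values was not tested.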

How the results depend on the processing

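No paired analysis was possible because the groups share no mouse numbers. The number of members called in FPC-GFP against CON-GFP was 6 to 7 with each library left out in turn, 2 to 3 in FPC-LIPA against FPC-GFP, and 3 in FPC-LIPA against CON-GFP. In FPC-LIPA against FPC-GFP the number went from 3 to 0 with an adjusted p under 0.01, with sheet numbers 55 to 68, and without FPC-LIPA 36, 37 and 39, where the log2 changes were 0.57 for Sult1b1, 0.30 for Sult1d1 and 0.24 for Sult2a7. In FPC-LIPA against CON-GFP it went from 3 to 7 without those 3 libraries.

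Directions turned in these cases. In FPC-LIPA against FPC-GFP, Sult2a8 was at -0.95 without FPC-LIPA 36, 37 and 39, and Sult1a1 ran from -0.26 to 0.0323 (without FPC-GFP 12) with each library left out and was at -0.38 with the length trend removed, in no fit called. In FPC-LIPA against CON-GFP, Sult1b1 was at -0.0177 with library size alone, -0.0515 with no filter, -0.0322 with the length trend removed, -1.42 without the 3 libraries and from -0.29 to 0.32 with each left out, and Sult1d1 was at -1.38 without the 3 and from -0.19 (without FPC-LIPA 37) to 0.62 with each left out. Under the diet all 7 members were lower in all 19 alternative fits, and calls were lost for Sult1c2 with library size alone (-0.996) and for Sult5a1 in 2 fits. Sult2a7 lost its call with LIPA in 14 of 20 alternative fits, among them 9 of the 12 that left out 1 library, library size alone (1.17) and no filter (1.34). The cause was not tested.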

Other observations

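Sult4a1 (ENSMUSG00000018865), known from brain and with no settled substrate, was singled out after its values were seen. It had 0 or 1 count in each CON-GFP library, 9 to 24 counts in FPC-GFP and 1 to 17 counts in FPC-LIPA. It did not pass the filter on low counts and was not tested, and no fold is given because 5 of the 6 controls were at 0 and the remaining one was under the floor of 3 counts. Its direction was opposite to that of the measurable sulfotransferase genes under the FPC diet, at levels of 0.273 to 1.23 CPM in FPC-GFP.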
